A study of Mus musculus with 11 samples.

Results

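Circadian clock genes were followed in whole aortic valves of mice. The 9 genes were Arntl, Nr1d1, Nr1d2, Dbp, Tef, Ciart, Per1, Per2 and Per3, out of 46983 genes in the count table and 19366 that were tested, and all 9 were among the tested genes. They were chosen by their library-scaled level (CPM, counts scaled to a common library size) in each library over the 4 groups and by how they moved together across libraries, so their levels and fold changes are given as a description. Counts of calls from a fit over all genes are printed beside the share of all genes called, and nothing about the members is read from them. The valves came from wild type mice and were collected 48 hours after surgery, with 1 mouse per library. Aging mice were 16 to 18 months old, and young mice were 3 to 4 months old. A wire was passed to injure the valve endothelium, and sham surgery was the control. There were 2 aging injured, 3 aging sham, 3 young injured and 3 young sham mice. The labels used here give no time of day for surgery or for collection, and every mouse of every group had undergone an operation.

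The mammalian clock is a transcriptional feedback loop that runs in nearly every cell and takes about a day to complete. The heterodimer of BMAL1, encoded by Arntl, with CLOCK or NPAS2 binds E-boxes and switches on the Per and Cry genes, Nr1d1 and Nr1d2, Ciart, and the output factors Dbp and Tef. PER and CRY proteins then inhibit the heterodimer, while the REV-ERB nuclear receptors encoded by Nr1d1 and Nr1d2 repress Arntl through ROR elements, so that Arntl peaks at an opposite phase to the E-box genes. In cardiovascular tissue the loop is known for daily rhythms of metabolism and vascular tone.

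Promoter windows of 4 members are shown because they hold the 3 kinds of element through which the loop is known to close. Sequences are RefSeq promoter windows of GRCm38.p6, from 250 bases before the annotated start to 50 after it, printed 5′ to 3′ on the gene's strand. Capitals mark the motif found by letter search on both strands: the E-box CACGTG in Ciart and Per1, the D-box TTATGTAA in Per3, and the ROR element TAGGTCA in Arntl. Ciart is on the minus strand at chr3:95882179-95882478, Per1 on the plus strand at chr11:69098699-69098998, Per3 on the minus strand at chr4:151044616-151044915, and Arntl on the plus strand at chr7:113207261-113207560.
Ciart: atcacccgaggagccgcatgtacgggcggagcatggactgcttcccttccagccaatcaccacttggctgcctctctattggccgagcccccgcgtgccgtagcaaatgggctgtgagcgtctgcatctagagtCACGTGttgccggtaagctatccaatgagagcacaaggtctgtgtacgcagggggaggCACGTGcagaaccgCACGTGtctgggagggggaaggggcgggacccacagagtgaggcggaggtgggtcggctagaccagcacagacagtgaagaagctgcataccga
Per1: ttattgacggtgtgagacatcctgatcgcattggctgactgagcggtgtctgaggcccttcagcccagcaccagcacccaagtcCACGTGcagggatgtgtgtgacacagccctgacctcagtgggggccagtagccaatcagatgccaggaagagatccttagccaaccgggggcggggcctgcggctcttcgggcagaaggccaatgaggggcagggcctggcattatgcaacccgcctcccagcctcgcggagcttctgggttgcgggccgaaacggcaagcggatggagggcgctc
Per3: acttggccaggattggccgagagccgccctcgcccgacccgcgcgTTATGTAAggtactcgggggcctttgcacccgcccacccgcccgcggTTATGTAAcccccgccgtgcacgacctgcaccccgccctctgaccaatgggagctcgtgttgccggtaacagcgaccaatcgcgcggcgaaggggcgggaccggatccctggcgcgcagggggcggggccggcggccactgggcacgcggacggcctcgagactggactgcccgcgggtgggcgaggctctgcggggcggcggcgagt
Arntl: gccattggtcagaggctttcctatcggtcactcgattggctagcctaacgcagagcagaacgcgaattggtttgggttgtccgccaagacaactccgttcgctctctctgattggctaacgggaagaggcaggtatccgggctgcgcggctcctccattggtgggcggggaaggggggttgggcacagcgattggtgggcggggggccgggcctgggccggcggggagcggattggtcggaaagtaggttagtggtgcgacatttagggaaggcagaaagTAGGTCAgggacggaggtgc
Ciart held 3 E-boxes, at 116, 58 and 44 bases before its start, and Per1 held 1 at 166 bases before. Per3 held 2 D-boxes, the element bound by DBP and TEF, at 205 and 158 bases before its start. The ROR element of Arntl began 30 bases after its start. Each start here is the annotated start of the window shown, which can differ from the gene start given below. Arntl and Per1 also had windows at chr7:113207215-113207514 and chr11:69099902-69100201, which held none of the motifs searched. Windows were given for 8 of the 9 genes, 11 windows in all, and 4 of them, of the 3 genes Ciart, Per1 and Tef, held CACGTG. Among all 32851 windows of the same length, 7.15% held CACGTG, 0.938% held TTATGTAA and 2.61% held TAGGTCA. The search also covered TTACGTAA (0.119% of all windows) and TGGGTCA (3.98%), which no member window held. A match describes these letters and is not a measured binding site.

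Library totals ranged from 27124000 to 36353474 counts, and values below are CPM after TMM scaling, which sets libraries level on the bulk of their genes. All 8 markers of valve interstitial cells and fibroblasts were tested and at 0 in no library, with summed levels of 12482 to 15284 CPM in aging injured, 10417 to 12608 in aging sham, 18582 to 22457 in young injured and 12655 to 14036 CPM in young sham libraries. All 14 cardiomyocyte markers were also above 0 in every library, with summed levels of 14913 to 16504 CPM in aging injured, 9179 to 26149 in aging sham, 10221 to 43650 in young injured and 22963 to 43378 CPM in young sham libraries. Young injured 3 and young sham 3 had the highest cardiomyocyte sums of the 11 libraries. Both aging injured libraries and young sham 1 held counts for the fewest genes, 18642, 19015 and 18641, against 20411 to 22533 in the other 8. All 5 smooth muscle markers were tested and at 0 in no library, with summed levels of 16540 to 18774 CPM in aging injured, 19014 to 22966 in aging sham, 5402 to 13072 in young injured and 6906 to 16971 CPM in young sham libraries.

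All 9 genes had values in the deposited RPKM table, which scales by gene length and so allows levels of different genes to be set side by side. By the median RPKM over 11 libraries, Nr1d1 stood at 138 and Dbp at 82.5, ahead of Tef at 44.1, Nr1d2 at 42.7, Per1 at 36.8 and Per2 at 29.0 RPKM. Per3 stood at 13.0, Ciart at 7.49 and Arntl at 0.94 RPKM. The gene of the activator was thus the lowest of the 9 by median, while it varied the most. Arntl differed 20.7-fold between its highest and lowest library on the CPM scale, Nr1d1 5.54-fold, Ciart 4.38-fold, Per2 3.93-fold, Dbp 3.90-fold and Per3 3.81-fold. Tef differed 2.35-fold, Per1 2.07-fold and Nr1d2 1.68-fold.

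**Figure D1:**
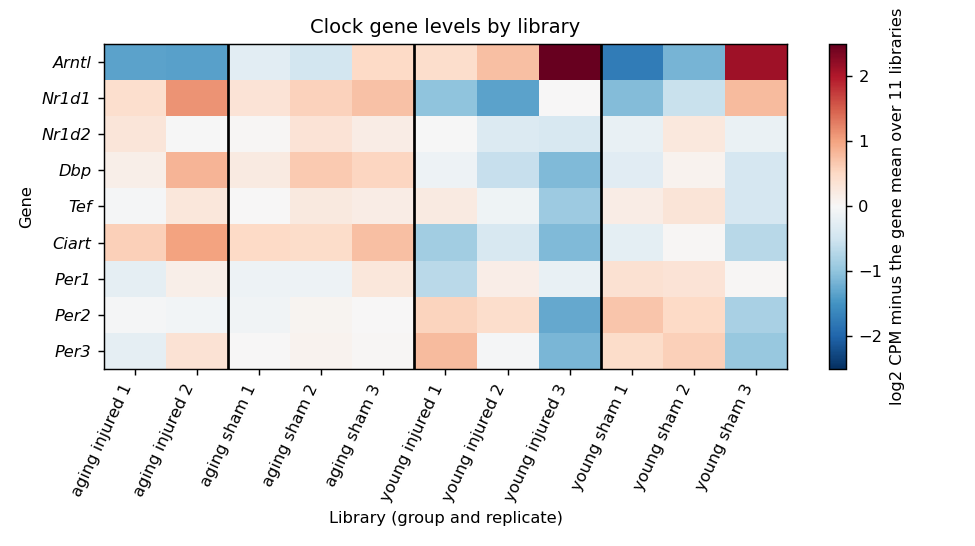
Clock gene levels in each of the 11 libraries, as log2 CPM minus the gene's mean over all libraries, with genes down the side and libraries grouped along the bottom. Arntl is high in young injured 3 (17.4 CPM) and young sham 3 (13.1 CPM), the libraries in which Per2, Per3 and Tef are lowest, and Ciart and Dbp are higher in every aging library than in every young one.

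Arntl, the activator, lies on the plus strand of chromosome 7, from 113207465 to 113314122 in mm10 coordinates. It stood at 1.14 and 1.11 CPM in aging injured valves and at 2.46, 2.13 and 4.21 CPM in aging sham valves. In young injured valves it stood at 4.02, 5.03 and 17.4 CPM, and in young sham valves at 0.841, 1.29 and 13.1 CPM. The values of 17.4 and 13.1 CPM, both from libraries numbered 3, stood well apart from the other 9, and the aging injured libraries lay below every aging sham and every young injured one. Group means were 1.12 ± 0.02 (SD, n = 2) in aging injured, 2.93 ± 1.12 (n = 3) in aging sham, 8.81 ± 7.44 (n = 3) in young injured and 5.07 ± 6.95 CPM (n = 3) in young sham valves, so the 2 young groups did not differ beyond their spread. Raw counts were 29 to 553 per library. The 4 lowest libraries included all 3 with the fewest detected genes, and whether that property has a part in the low values was not tested.

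Nr1d1 encodes REV-ERBα, a heme-binding receptor that represses Arntl, and lies on the minus strand of chromosome 11, 98767932 to 98775333. Its levels were 407 and 660.0 CPM in aging injured valves and 382, 451 and 502 CPM in aging sham valves. Its levels were 151, 119 and 305 CPM in young injured valves and 143, 205 and 526 CPM in young sham valves. Of the young libraries, young injured 3 and young sham 3 were the highest of their groups, and young sham 3 lay above every aging sham library. Apart from young sham 3, every young library lay below every aging one. Nr1d1 and Thra, which encodes a thyroid hormone receptor, overlap tail to tail on opposite strands, and 263 exonic bases, 8.55% of the exonic bases of Nr1d1, are shared. Thra had 3864 to 8247 counts per library, and because the strand setting of the counting is not given in the sources used here, reads from the shared bases cannot be assigned with certainty.

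Nr1d2 encodes REV-ERBβ, the paralog of REV-ERBα, on the minus strand of chromosome 14, 18204054 to 18239127. It was the steadiest of the 9 genes. It stood at 233 and 189 CPM in aging injured valves and at 192, 239.9 and 214 CPM in aging sham valves, against 187, 149 and 143 CPM in young injured and 165, 227 and 169 CPM in young sham valves. The aging injured and young injured values did not overlap, though the gap between them, from 189 to 187 CPM, was narrow. The 2 aging groups overlapped each other, as did the 2 young groups and the 2 sham groups.

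Dbp encodes a PAR bZIP factor that carries the clock signal to D-box genes, and lies on the plus strand of chromosome 7, 45705088 to 45710155. Its levels were 230.2 and 374 CPM in aging injured valves and 241, 326 and 299 CPM in aging sham valves. In young injured valves they were 189, 139 and 95.9 CPM, and in young sham valves 169.6, 219 and 155 CPM. Every aging library lay above every young one, with 230.2 CPM as the lowest aging and 219 CPM as the highest young value. The 2 aging groups overlapped, and so did the 2 young groups. Sphk2, a sphingosine kinase gene on the opposite strand with 564 to 1690 counts per library, shares 539 exonic bases with Dbp, 18.0% of the exonic bases of Dbp.

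Tef, a second member of the PAR bZIP family, lies on the plus strand of chromosome 15, 81802421 to 81826861. It stood at 278 and 348 CPM in aging injured and at 289, 338 and 325 CPM in aging sham valves. It stood at 335, 264 and 152 CPM in young injured and at 325, 359 and 213 CPM in young sham valves. The values of 152 and 213 CPM, from young injured 3 and young sham 3, were the lowest of all, and the other 9 libraries lay between 264 and 359 CPM. All 4 groups overlapped one another. A lincRNA gene on the opposite strand, Gm17597, with 0 to 24 counts per library, shares 193 exonic bases with Tef, 2.45% of the exonic bases of Tef.

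Ciart, also known as Chrono, encodes a repressor of the BMAL1 heterodimer and lies on the minus strand of chromosome 3, 95878503 to 95882251. It stood at 22.6 and 30.3 CPM in aging injured and at 21.3, 20.6 and 25.3 CPM in aging sham valves. It stood at 8.13, 11.3 and 6.92 CPM in young injured and at 12.6, 15.3 and 9.30 CPM in young sham valves. Every aging library lay above every young one, the lowest aging value being 20.6 CPM and the highest young value 15.3 CPM. Within each age, injured and sham values overlapped.

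Per1 and Per2 encode the period proteins whose loss in mice is known to disrupt daily activity rhythms. Per1, on the plus strand of chromosome 11 from 69095217 to 69109960, stood at 159 and 205 CPM in aging injured and at 170.0, 170.3 and 224 CPM in aging sham valves. It stood at 116, 209.6 and 162 CPM in young injured and at 240.4, 235 and 189 CPM in young sham valves. All 4 groups overlapped, and young injured 3 and young sham 3 were at neither end of the range. Per2, on the minus strand of chromosome 1 from 91415982 to 91459324, stood at 148 and 144 CPM in aging injured and at 143, 158 and 151 CPM in aging sham valves. It stood at 222, 203 and 62.3 CPM in young injured and at 245, 212 and 85.3 CPM in young sham valves. Within each young group 2 libraries lay above all aging values and the third below all of them, so the 5 aging libraries occupied a gap in the young distribution.

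Per3, whose product is the least required of the PER proteins for rhythms in mice, lies on the minus strand of chromosome 4, 151003652 to 151044665, inside the span of Camta1 on the same strand with 0 exonic bases shared. It stood at 93.7 and 140.0 CPM in aging injured and at 111, 116 and 111 CPM in aging sham valves. It stood at 188, 107 and 49.5 CPM in young injured and at 150.3, 164 and 56.9 CPM in young sham valves. The lowest values again came from young injured 3 and young sham 3. The SD was 32.7 CPM in aging injured (n = 2), 3.23 in aging sham, 69.8 in young injured and 58.3 CPM in young sham valves (n = 3 each).

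**Figure D2:**
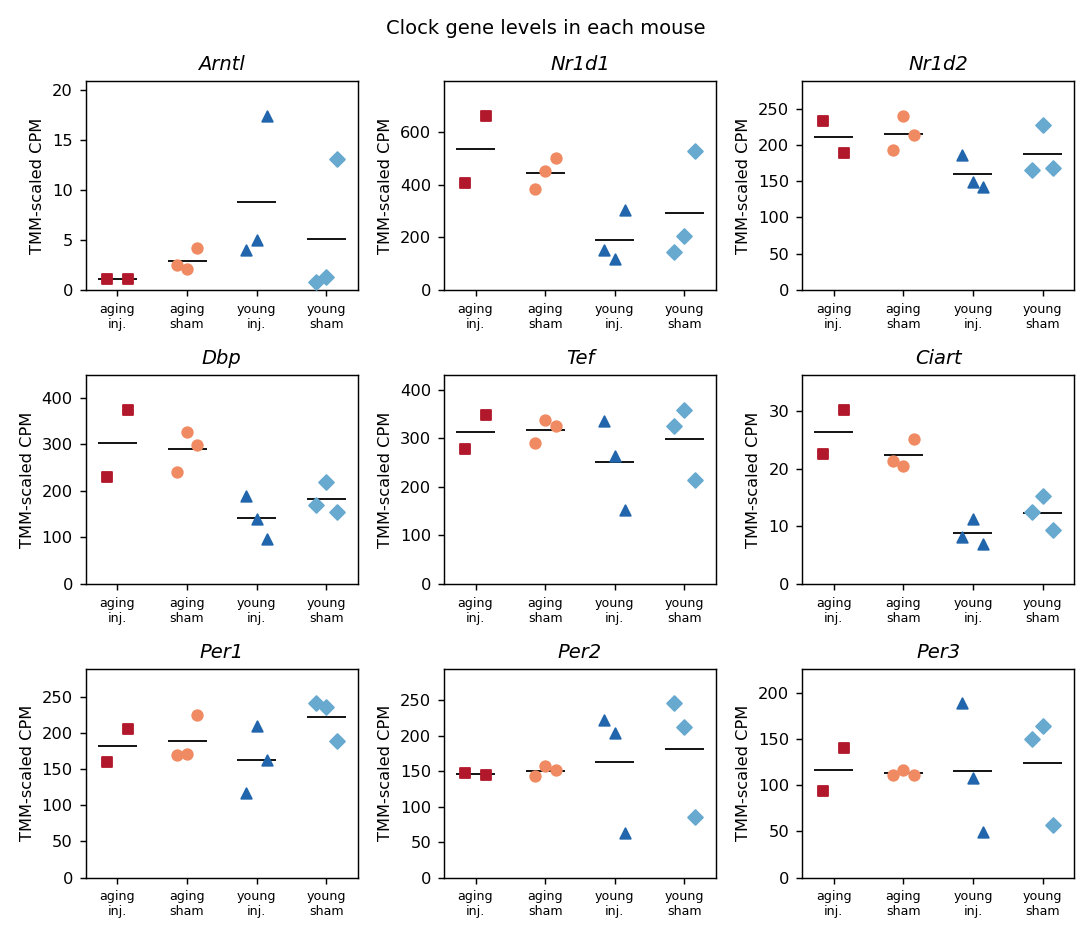
TMM-scaled CPM of the 9 clock genes in every mouse, 1 panel per gene, with groups along the bottom, points for mice and a bar at the group mean. The aging points of Ciart (20.6 CPM and above) and Dbp (230.2 CPM and above) lie over all young points, and 1 young injured and 1 young sham point stand apart in Arntl, Per2, Per3 and Tef.

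Injury was first compared with sham surgery among aging mice. Dbp, Tef, Nr1d2 and the 3 Per genes had log2 fold changes between -0.05 (Per1) and 0.07 (Dbp) in aging injured relative to aging sham valves. Ciart was at 0.24 ± 0.26 (SE) and Nr1d1 at 0.26 ± 0.51. Arntl was at -1.38 ± 1.07, and it was the only member whose aging injured and aging sham values did not overlap, a separation found for 27.8% of the genes tested. A gene was called by edgeR's quasi-likelihood test at an adjusted p (Benjamini-Hochberg) below 0.1 together with more than a 2-fold change, as the study's design text sets it. The members were 0 of 9 called, with 0% of all genes called. Of the members 0 had an unadjusted p under 0.05, against 1710 of the 19366 genes, and DESeq2 and limma-voom also called 0 members. The median log2 fold change was -0.02 over the members and -0.01 over all genes. With a term for the 3 libraries with the fewest detected genes, 2 of which are the aging injured ones, Arntl moved to 1.71, so its direction here cannot be told apart from that property.

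The next comparison asked the same of young valves. In young injured relative to young sham valves 8 of the 9 members had negative log2 fold changes. Nr1d1 was at -0.60 ± 0.46 (SE), Ciart at -0.50 ± 0.23, Per1 at -0.44 ± 0.21, Dbp at -0.36 ± 0.26 and Tef at -0.25 ± 0.27. Nr1d2 was at -0.23 ± 0.17, Per2 at -0.15 ± 0.43 and Per3 at -0.10 ± 0.44. Arntl alone was positive, at 0.80 ± 0.89. The members' median was -0.25 and that of all genes 0.01. Injured and sham values overlapped for all 9 members, while 14.6% of the genes tested did not overlap. The members called were 0 of 9, with 0.418% of all genes called; 0 members and 1780 of all genes had an unadjusted p under 0.05 in edgeR, and DESeq2 and limma-voom called 0 members.

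Arntl and Nr1d1 in young valves rested on which libraries were kept. Without young sham 3 the log2 fold change of Arntl after injury in young valves was 3.04, and without young injured 3 it was -0.16. Without both it was 2.09, with young injured values of 4.02 and 5.03 CPM against young sham values of 0.841 and 1.29 CPM. Nr1d1 moved to 0.14 without young sham 3 and to -1.11 without young injured 3, and it stood at -0.36 without both. Ciart kept a negative sign whichever library was left out, between -0.73 and -0.32, as did Per1, between -0.68 and -0.25, Dbp, between -0.63 and -0.15, and Nr1d2, between -0.36 and -0.06. Per2, Per3 and Tef did not keep it. Without young injured 3 Per2 stood at 0.24, Per3 at 0.26 and Tef at 0.00. With the term for the 3 libraries with the fewest detected genes Per2 stood at 0.13 and Per3 at 0.06. With a cardiomyocyte marker score as a covariate they moved the other way, Per2 to -0.71, Per3 to -0.54 and Tef to -0.55. That fit put Arntl at 1.63, Nr1d1 at -0.23, Ciart at -0.62, Per1 at -0.49, Dbp at -0.59 and Nr1d2 at -0.32.

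Age was then compared within each surgery. In aging injured relative to young injured valves, Ciart was 3.01-fold higher, at 1.59 ± 0.26 (log2, SE), Nr1d1 2.78-fold higher, at 1.48 ± 0.51, and Dbp 2.14-fold higher, at 1.10 ± 0.29. Nr1d2 was at 0.40 ± 0.19 and Tef at 0.32 ± 0.30, while Per1 (0.16 ± 0.24), Per2 (-0.16 ± 0.49) and Per3 (0.02 ± 0.50) were within about 1 SE of 0. Arntl went the other way, 7.81-fold lower in aging injured valves, at -2.97 ± 1.14. The values of 5 members did not overlap between these groups, namely Ciart, Nr1d1, Dbp, Nr1d2 and Arntl, and 24.4% of the genes tested did not overlap. Of the members 1, Ciart, was called, with 0.062% of all genes called, with 4 members and 2425 of all genes at an unadjusted p under 0.05; DESeq2 called 3 members and limma-voom 1. The members' median was 0.32, against -0.04 over all genes. The call of Ciart held in 10 of 21 alternatives and was lost in 11, among them the fit of only the 2 groups compared, the replicate block, the term for the 3 libraries with the fewest detected genes, and the fit without young injured 3. Since the members were chosen on these levels, these counts support nothing by themselves.

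In aging sham relative to young sham valves Ciart, Dbp and Nr1d1 again had the highest log2 fold changes. Ciart was 1.80-fold higher, at 0.85 ± 0.23 (log2, SE), Dbp 1.59-fold higher, at 0.67 ± 0.26, and Nr1d1 1.53-fold higher, at 0.61 ± 0.46. Nr1d2 was at 0.20 ± 0.17, Tef at 0.09 ± 0.27, Per1 at -0.24 ± 0.21, Per2 at -0.27 ± 0.43, Per3 at -0.13 ± 0.44 and Arntl at -0.78 ± 0.90. Only Ciart and Dbp had values that did not overlap, and 20.9% of the genes tested did not. The members called were 0 of 9, with 0.0258% of all genes called; 2 members and 1779 of all genes had an unadjusted p under 0.05 in edgeR, and DESeq2 and limma-voom called 0 members. The members' median was 0.09 and that of all genes 0.02. Over both surgeries together, the 5 aging and 6 young libraries did not overlap for Ciart and Dbp, and the same held for 1.82% of the genes tested.

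Age differences of Ciart and Dbp kept their sign in all 21 alternatives in both surgeries. For Ciart they ranged from 1.36 to 1.82 in injured and from 0.68 to 1.03 in sham valves on the log2 scale, and for Dbp from 0.70 to 1.40 in injured and from 0.34 to 0.83 in sham valves. Both lowest sham values came from the fit with the cardiomyocyte score as a covariate. In the main fit Ciart stood at 0.85 and Dbp at 0.67, and leaving out 1 library left Dbp at 0.57 or above. Nr1d1 kept its sign too, but its age difference in sham valves moved to 1.36 without young sham 3, to 1.42 with the cardiomyocyte score as a covariate, and to 0.28 both without young sham 1 and with the term for the 3 libraries with the fewest detected genes. Arntl kept its sign in sham valves in 16 of 21 alternatives. It stood at 1.46 without young sham 3 and also without both young libraries numbered 3, at 0.96 with the cardiomyocyte score, at 0.38 with limma-voom and at 0.13 with the replicate block. In injured valves Arntl stayed between -3.31 and -2.01 when any library was left out, and moved to 0.12 with the term for the 3 libraries with the fewest detected genes. Smooth muscle marker sums split by age within each surgery as Ciart and Dbp did, at 16540 CPM and above in every aging injured library against 13072 CPM and below in every young injured one, and at 19014 CPM and above in aging sham against 16971 CPM and below in young sham libraries. Their part in the age differences was not tested.

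The difference between the effect of injury in aging and in young valves was fitted as an interaction. The log2 interaction was -2.18 ± 1.39 (SE) for Arntl, 0.86 ± 0.68 for Nr1d1, 0.74 ± 0.35 for Ciart, 0.43 ± 0.39 for Dbp and 0.40 ± 0.32 for Per1, with the other 4 members between 0.11 and 0.23. It was positive for 8 of the 9, with a median of 0.23 over the members and -0.05 over all genes. Without young injured 3 it was -0.28 for Per2, -0.21 for Per3 and -0.02 for Tef, and with the term for the 3 libraries with the fewest detected genes it was -0.89, -0.45 and -0.02 for the same genes. For Nr1d1 it was 0.12 without young sham 3, 1.37 without young injured 3 and 2.55 with that term. For Arntl it was -4.42 without young sham 3, -1.22 without young injured 3 and 1.41 with that term. The members called were 0 of 9, with 0% of all genes called; 0 members and 1523 of all genes had an unadjusted p under 0.05 in edgeR, and DESeq2 and limma-voom called 0 members.

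**Figure D3:**
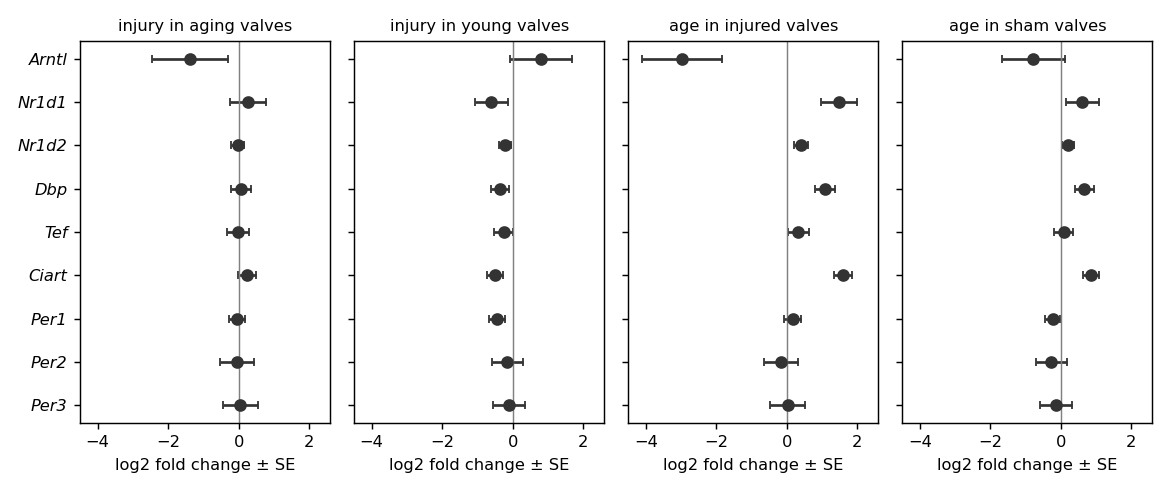
Log2 fold changes of the 9 clock genes with bars of 1 SE, in a panel for each of 4 comparisons. Injury in aging valves leaves the points near 0 apart from Arntl (-1.38), and age in injured valves shows the widest spread, with Ciart at 1.59 and Arntl at -2.97.

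The libraries numbered 3 in the young groups were alike in several of these genes. Their deviations from group means also correlated over all tested genes, at 0.25, so the likeness cannot be called particular to clock genes. Young injured 3 and young sham 3 had the 2 highest levels of Arntl and the 2 lowest of Per2, Per3 and Tef. Young injured 3 had the lowest level of 6 of the 9 members, namely Ciart, Per2, Per3, Dbp, Tef and Nr1d2. Of 31 other clock and output genes it had the lowest level of 4 and the highest of 6. Outside the members the same 2 libraries had the highest levels of Npas2, at 9.21 and 7.06 CPM against 1.89 to 4.69 CPM elsewhere, and of Clock, at 68.8 and 60.6 CPM against 38.9 to 52.1 CPM elsewhere. Npas2 and Clock encode the alternative partners of BMAL1. The 2 libraries also had the lowest levels of Hlf, the remaining PAR bZIP gene, at 40.1 and 57.6 CPM against 72.9 to 145 CPM elsewhere. Of 17 core clock genes outside the members, 4 had their 2 highest levels there, namely Clock, Npas2, Rorb and Timeless. For 2, Rora and Hlf, they were the 2 lowest, and for 11 they were neither. Rorb stood at 3.30 and 2.68 CPM and Timeless at 16.2 and 15.7 CPM. The share of all genes with their extremes in these 2 libraries was not computed. The clock output genes Tspan4, a tetraspanin gene, and Wee1, which encodes a kinase that holds back mitosis, were lowest there too, Tspan4 at 58.3 and 56.2 CPM against 91.7 to 137 CPM and Wee1 at 14.5 and 14.0 CPM against 18.6 to 31.8 CPM. They were the 2 of 14 output genes with their 2 lowest levels in these libraries. The output genes Noct (30.1 and 38.5 CPM), Klf10 (42.1 and 43.7 CPM) and Pdk4 (103 and 272 CPM) had their 2 highest levels there, and the other 9 had neither. The same libraries had summed cardiomyocyte marker levels of 43650 and 43378 CPM, against 9179 to 33714 CPM in the other 9, and mitochondrial shares of 11.1% and 13.8% of counts, against 5.10% to 11.8% in the others. Their smooth muscle marker sums, 5402 and 6906 CPM, were the 2 lowest, against 9612 to 22966 CPM in the other 9, and so were the sums of 4 mesothelial markers, at 25.8 and 12.3 CPM against 29.5 to 176 CPM. The part of smooth muscle and mesothelial content in these clock gene levels was not tested, nor that of cardiomyocyte content beyond the covariate values given above, and in bulk tissue fewer cells of a type cannot be told apart from less RNA per cell.

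Cry1, which encodes a cryptochrome that inhibits the BMAL1 heterodimer, split the young groups in the same way. It stood at 8.24 and 10.5 CPM in aging injured and at 11.3, 9.84 and 11.8 CPM in aging sham valves. It stood at 20.3, 20.6 and 8.90 CPM in young injured and at 25.6, 24.9 and 7.29 CPM in young sham valves. The young libraries numbered 1 and 2 lay above every aging value, and those numbered 3 lay among or below them. Cry2, the paralog, ranged only from 46.4 to 74.0 CPM over the 11 libraries.

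**Figure D4:**
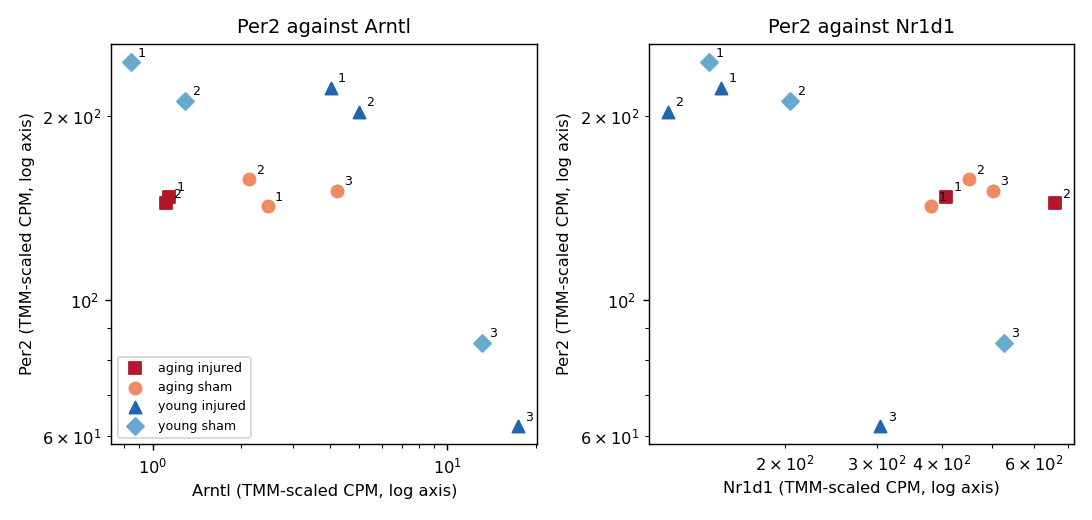
Per2 against Arntl (left) and against Nr1d1 (right) in TMM-scaled CPM on log axes, 1 point per mouse, numbered by replicate. The 5 aging mice lie at Per2 of 143 to 158 CPM, between young injured 3 and young sham 3 at low Per2 (62.3 and 85.3 CPM) with high Arntl and the other young mice at 203 CPM and above.

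Correlations between members describe how they moved across the 11 libraries on the log2 CPM scale; the libraries share their 4 groups, and no p is given because the members were chosen for this pattern. Arntl was negatively correlated with 7 of the 8 other members, from Tef (r = -0.80) to Per1 (r = -0.30), and not with Nr1d1 (r = 0.06). Among the 5 aging libraries 4 of these 8 correlations were positive, with a median of -0.01. Of the 28 pairs without Arntl 24 were positive. The highest were Per2 with Per3 and Per3 with Tef, each at r = 0.92, and Ciart with Dbp at r = 0.89. With group means taken away 19 of the 28 were positive, and among the 5 aging libraries 18 were. After each group's mean was taken away, Per3 with Tef stood at 0.98 and Ciart with Dbp at 0.57, so much of the likeness of Ciart and Dbp lay between groups. The centred r of Nr1d1 was -0.89 with Per2, -0.25 with Dbp and 0.91 with Arntl. That of Per1 was -0.01 with Dbp, 0.01 with Per3 and 0.05 with Tef. Among the 5 aging libraries Nr1d1 stood at 0.91 with Ciart, 0.88 with Dbp, 0.82 with Per3 and 0.81 with Tef. It stood there at 0.72 with Per1, -0.07 with Per2, -0.24 with Arntl and -0.40 with Nr1d2. In these libraries Dbp with Tef reached 0.98 and Per2 with Per3 -0.13, over a range of Per2 of only 143 to 158 CPM.

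Other genes of the loop were taken from 2 lists, 17 core clock genes outside the members and 14 clock output genes, all of them tested. By edgeR, 0 of the 17 core genes and 0 of the 14 output genes were called in each of the 5 comparisons. Unadjusted p-values under 0.05 were found for 1 core and 5 output genes for injury in young valves, for 0 and 0 for injury in aging valves, for 2 and 5 for age in sham valves, for 2 and 0 for age in injured valves, and for 0 and 2 for the interaction. DESeq2 called 0 core genes and 1 output gene for injury in young valves, 1 (Nfil3) and 1 for age in sham valves, and 0 elsewhere. Over all genes it called 268 for injury in young valves and 200 for age in sham valves. Limma-voom called 0 genes of either list. The median log2 fold change of the output genes after injury in young valves was -0.48, with 4 of 14 positive, and that of the core genes was -0.11, with 6 of 17 positive.

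Some core genes spread over narrower ranges or followed other patterns. Rora, which encodes an activator at ROR elements, ranged from 49.0 to 68.9 CPM, with young injured 3 and young sham 3 the lowest. Bhlhe40, which encodes the E-box repressor DEC1, stood at 158 and 209.8 CPM in aging injured and at 140.2, 139 and 155 CPM in aging sham valves. It stood at 128, 139 and 213 CPM in young injured and at 71.6, 92.6 and 167 CPM in young sham valves, and the highest value of each young group came from its library numbered 3. The aging injured values of Bhlhe40 lay above every aging sham value, but its difference was not called.

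Among output genes, Usp2, which encodes a deubiquitinase, ranged from 25.6 to 91.2 CPM. Klf15, a transcription factor gene of nutrient metabolism that responds to glucocorticoids, stood at 36.1, 46.9 and 38.5 CPM in young injured and at 72.0, 64.3 and 61.1 CPM in young sham valves. These Klf15 values did not overlap, and the log2 fold change of -0.70 ± 0.16 (SE) had an edgeR adjusted p of 0.116. In aging valves Klf15 stood at 55.3 and 45.2 CPM after injury and at 49.2, 54.2 and 67.6 CPM after sham surgery, which overlapped. Tsc22d3, which encodes the glucocorticoid-induced leucine zipper, stood at 155 and 107 CPM in aging injured and at 145, 112 and 183 CPM in aging sham valves, against 101, 281 and 169 CPM in young injured and 327, 281 and 190.1 CPM in young sham valves. Fkbp5, a glucocorticoid receptor co-chaperone gene, stood at 60.7 and 45.9 CPM in aging injured, 52.3, 42.2 and 51.3 in aging sham, 30.4, 88.2 and 45.6 in young injured and 96.9, 60.0 and 46.6 CPM in young sham valves. Of a list of 12 glucocorticoid-responsive genes edgeR called 0 in each of the 5 comparisons. The counts with an unadjusted edgeR p under 0.05 were 3 for injury in young valves and 5 for age in sham valves. They were 1 for age in injured valves and 0 for the other 2. DESeq2 called 2 for age in sham valves, against 200 of all genes, and 0 elsewhere.

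**Figure D5:**
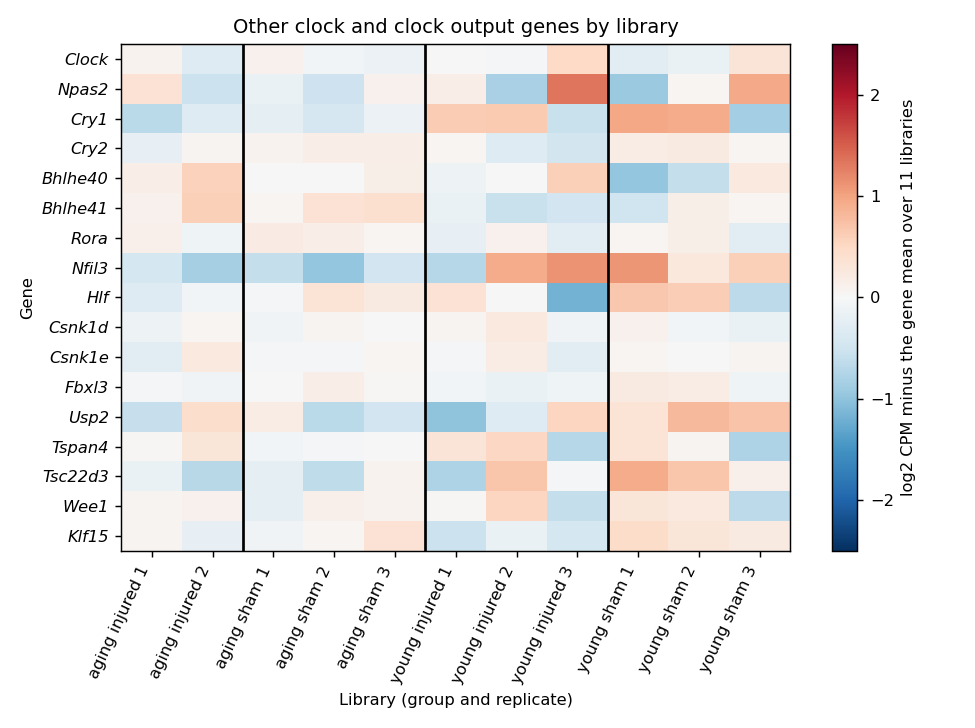
Other clock and clock output genes in each library, as log2 CPM minus the gene's mean over the 11 libraries. Npas2 and Clock are highest in young injured 3 and young sham 3, where Hlf and Tspan4 are low, and Nfil3 is low in all 5 aging libraries (4.60 to 6.57 CPM).

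Dbp was used as the yardstick for likeness, since it is a direct clock output with a wide daily swing, and 31 other clock and output genes were correlated with it over the 11 libraries by a two-sided permutation test with 100000 resamples. Bhlhe41 and Nfil3 passed. The shuffle ran over all 11 libraries without regard to group, so a difference between the ages alone can give a small p. Dbp was chosen on these levels, and the lists with earlier results known, so these p-values support nothing by themselves. Bhlhe41, which encodes the E-box repressor DEC2, had r = 0.89 (permutation p = 0.0002, adjusted p = 0.0062) and rho = 0.89 (permutation p = 0.0005, adjusted p = 0.0155), and r = 0.85 without the 2 libraries farthest from the median of Dbp. Nfil3, which encodes a repressor that competes with DBP and TEF for D-boxes, had r = -0.85 (permutation p = 0.00065, adjusted p = 0.0101) and rho = -0.86 (permutation p = 0.00125, adjusted p = 0.0194), and r = -0.81 without those 2 libraries. Timeless, which encodes a protein of the replication fork, had r = -0.75 with an adjusted permutation p of 0.0784 and rho = -0.82 with an adjusted permutation p of 0.0339. Dbp did not overlap between the ages, so the relation was also computed within. Centred on group means, Bhlhe41 had r = 0.66 (adjusted exact permutation p = 0.271) and Nfil3 r = -0.77 (adjusted exact permutation p = 0.215). Among the 6 young libraries alone, Bhlhe41 had r = 0.63 and Nfil3 r = -0.62, each with an adjusted exact permutation p of 0.474. The relations did not pass the threshold of 0.05 within groups or within young mice. Only 432 orders exist within groups, so the smallest possible exact permutation p was 0.00231. After adjustment over the 31 genes, 1 gene alone could not reach 0.05. Before adjustment the centred exact permutation p was 0.0394 for Nfil3 and 0.0741 for Bhlhe41. These were not the smallest in the family. The centred r was 0.92 for Cry2, 0.84 for Arntl2 and 0.76 for Hlf. Their exact permutation p-values were 0.0162, 0.0301 and 0.0255, each 0.215 after adjustment. The 6 young libraries allow 720 orders. These tests therefore cannot show that the relations are absent within groups or within young mice.

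Nfil3 stood at 6.57 and 5.06 CPM in aging injured and at 5.88, 4.60 and 6.40 CPM in aging sham valves. It stood at 5.46, 17.2 and 19.7 CPM in young injured and at 19.3, 10.8 and 13.7 CPM in young sham valves. With young injured 1 as the exception, every young value lay above every aging one. Its log2 difference with age was -1.28 ± 0.47 (SE) in injured and -1.37 ± 0.41 in sham valves, with edgeR adjusted p-values of 0.311 and 0.390. Bhlhe41 stood at 81.3 and 114 CPM in aging injured, 78.3, 96.6 and 99.7 in aging sham, 67.8, 51.1 and 54.6 in young injured and 53.6, 84.1 and 78.1 CPM in young sham valves. Its age difference was 0.75 ± 0.22 in injured and 0.35 ± 0.20 in sham valves, with edgeR adjusted p-values of 0.224 and 0.626.

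Over the 15004 tested genes with a mean of at least 1 CPM, the genes outside the members with the highest Pearson r to Dbp across the 11 libraries were Flrt1 (0.96), Phex (0.96), Eml2 (0.96), Ptch1 (0.95) and Slit3 (0.95). Phex encodes a phosphate-regulating endopeptidase, Ptch1 the hedgehog receptor and Slit3 a secreted guidance ligand. The lowest were Tmem147, Fbn2, Gpm6b, Kctd15 and Serbp1, each at -0.93. Centred on group means, the most alike were Cdkn1b (0.99), which encodes a cell cycle inhibitor, Cdk5 (0.98), Zfp316 (0.98), Tnfsf12 (0.97) and Spint2 (0.96). By the uncentred r to Dbp across the 11 libraries, Ciart stood above 99.8% of the 15004 genes, Nr1d2 above 98.1%, Tef above 98.0%, Nr1d1 above 88.8%, Per3 above 88.3%, Per2 above 77.9% and Per1 above 61.6%, and Arntl above 4.17%. The members were chosen for moving together across these libraries, so these ranks support nothing by themselves. Centred on group means, r to Dbp was 0.88 for Tef, 0.82 for Per3, 0.65 for Per2 and 0.57 for Ciart. It was 0.50 for Nr1d2, -0.01 for Per1, -0.25 for Nr1d1 and -0.50 for Arntl.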

How the data were processed

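RNA was sequenced from whole aortic valves, 1 mouse per library, from 200 ng of total RNA with 150 nt paired-end reads, per the labels' protocols. The submitters' processing notes name TopHat2 2.1.0 and the mm10 build; neither the counter and its strand setting nor the gene annotation is named there. The authors deposited unnormalized counts of 46983 genes with mm10 coordinates, and RPKM values of 13526 genes, used here to set levels of different genes side by side. In the counts 1 library column matched no label and was not used. Pairs of libraries of 1 group differed by a chi-square per degree of freedom of 20.9 to 228, so none was treated as a repeat.

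Counts were fitted with edgeR 4.0.16 in R 4.3.3 (filterByExpr, minimum count 10, 19366 genes; TMM; quasi-likelihood F test; 11 libraries, 4 group means; common biological coefficient of variation 0.377). SE is the absolute log2 fold change over the square root of F. Log2 CPM used a prior count of 2. Alternatives used DESeq2 1.42.0, limma-voom (limma 3.58.1), other scaling, no filter, the compared groups alone, covariates, a replicate block and each library left out; the code was tested on simulated data. Correlations and figures were made in Python 3.11.15.

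The 9 members and all lists were chosen with earlier results of these data known. Named genes were the members, 15 listed clock, output and glucocorticoid genes, any other listed gene that was called, and the 5 genes most and least like Dbp. Timeless was added after its correlation was seen. Noct, Klf10, Pdk4 and Rorb were added for their levels in the young libraries numbered 3. A gene of the core list is not reported here and was left out of the list counts and the correlation family, though it stayed in the fit. Precision is limited by 2 or 3 mice per group. Genome overlaps were read from GENCODE M21 and promoters from RefSeq.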

Additional observations from a re-analysis of the deposited data

How the results depend on the processing

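Called genes were 81 for injury in young valves, 0 for injury in aging valves, 5 for age in sham valves, 12 for age in injured valves and 0 for the injury by age interaction. DESeq2 called 268, 329, 200, 599 and 174 genes in that order. Without the filter on low counts, injury in aging valves had 1, age in sham valves 14 and age in injured valves 38. With only the groups compared, injury in young valves had 11, age in sham valves 13 and age in injured valves 0. With a term for the 3 libraries with the fewest detected genes, the first 4 comparisons had 43, 3, 1 and 104. Age in sham valves had 2 with limma-voom and 2 with the cardiomyocyte score as covariate. Leaving out 1 library at a time gave 16 to 447 for injury in young valves (447 without young injured 3), 0 to 261 for injury in aging valves (261 without aging injured 1), 1 to 10 for age in sham valves, 3 to 429 for age in injured valves (429 without aging injured 1) and 0 to 0 for the injury by age interaction. Without both young libraries numbered 3, an alternative chosen after seeing the data, age in sham valves had 12. The causes were not tested. Correlation of each other clock gene with Dbp across libraries passed for 2 genes, for 0 when centred on group means and for 0 with young libraries only, the last also chosen after seeing the data. The 432 orders within groups do not let 1 gene alone pass.

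The replicate numbers of the titles are not known to pair mice: the deviations of same-numbered young libraries correlated at 0.08, -0.01 and 0.25. A replicate block gave 55 calls for injury in young valves, 0 for injury in aging valves, 5 for age in sham valves, 4 for age in injured valves and 0 for the injury by age interaction. Under the alternatives 28 values of member genes moved by more than the spread between replicates and 908 did not. The 908 include fits without a library from outside the groups compared, which leave the value nearly unchanged. Values that changed sign within that spread also count among them, so the 908 are no measure of stability. With 2 aging injured mice, comparisons that leave 1 of them out assume that the lone library varies like the other groups.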

Other observations

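Immediate early genes, which respond within minutes to handling and tissue stress, were a further list of 14 genes, all tested. In aging sham relative to young sham valves 0 of 14 log2 fold changes were positive and their median was -0.85, against 0.02 over all genes, and in aging injured relative to young injured valves 1 of 14 was positive, with a median of -0.67 against -0.04. By edgeR 0 of the 14 were called in each of the 5 comparisons. The list was chosen with earlier results of these data known, so its counts support nothing by themselves. Unadjusted edgeR p-values under 0.05 were found for 10 in the sham and 5 in the injured age comparison. There were 2 for injury in young valves, 1 for injury in aging valves and 0 for the interaction. Over all 19366 genes tested the counts in that order were 1779, 2425, 1780, 1710 and 1523. DESeq2 called 5, 3, 0, 0 and 0 in that order, against 200, 599, 268, 329 and 174 of all genes. Nr4a1, an orphan nuclear receptor gene, stood at 42.2 and 63.7 CPM in aging injured and at 117, 47.3 and 52.6 CPM in aging sham valves, against 160.1, 164 and 138 CPM in young injured and 346, 203 and 76.2 CPM in young sham valves; it was chosen after its values were seen.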
